A study of Homo sapiens with 6 samples.

Results

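HGF, which encodes hepatocyte growth factor, and 9 receptor tyrosine kinase genes that are followed in glioma (MET, EGFR, ERBB2, PDGFRA, PDGFRB, FGFR1, IGF1R, KIT and NTRK2) were described in RNA-seq of U87MG cells. The 10 genes were chosen by name with results of this LMO2-against-control comparison in view, so their differences between the groups are given as a description, with no p-value. They were found by gene symbol and Entrez ID among 27257 genes with a line in any library. Of the 10, 9 had a line, 8 had a line in all 6 libraries and 7 passed the filter on low counts that left 16092 tested genes. KIT had no line in any library and was not analysed here. PDGFRA and NTRK2 had too few counts to pass that filter, and the tested genes are therefore not all members.

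The samples were U87MG, an established human glioblastoma cell line grown with 10% foetal bovine serum, infected for 24 h with a lentivirus. U87MG-control (3 libraries) received a control lentivirus and U87MG-LMO2 (3 libraries) one that carried LMO2, which the study's methods place behind a CMV promoter with puromycin resistance. All 6 libraries therefore came from infected cells of 1 line, and nothing states that replicates were separate cultures, so the errors measure the spread between these libraries, which may be technical. The comparison asks which genes differ in level when LMO2, a LIM-domain adaptor protein, is overexpressed.

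Most receptor tyrosine kinases are single-pass membrane proteins that dimerize when they bind a ligand. The paired receptors phosphorylate each other and recruit adaptors that switch on the RAS-MAPK and PI3K-AKT cascades. HGF is secreted as an inactive single chain, is cut by serine proteases and binds MET, its receptor. In glioblastoma, amplified or mutated EGFR, PDGFRA and MET are well known drivers, and several receptors are often active in the same tumour.

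The libraries held 11428432 to 17892955 expected counts. LMO2, the gene carried by the virus, was at 0.38 to 0.80 CPM (counts scaled to library size, with TMM factors for library composition) in U87MG-control and at 333.0, 307.0 and 877.9 CPM in U87MG-LMO2 replicates 1, 2 and 3. U87MG-LMO2 replicate 3 stood apart. It held the most LMO2 and its log2 CPM correlated with those of replicates 1 and 2 at 0.979 and 0.9725 over genes, against 0.990 between these 2. Results that rest on it are given with and without it. In the control group, replicate 1 was the least like the others. It correlated with replicates 2 and 3 at 0.985 each, against 0.991 between these 2. Fold changes also moved with base composition. The median log2 fold change of all tested genes was -0.22 where transcripts had under 40% GC and 0.23 where they had 60% or more. Values after a correction for GC content are therefore given beside those of the tested members and of the called genes named from the pathway lists. Of 6 astroglial marker genes, 4, among them S100B and AQP4, were under 1 FPKM (fragments scaled to transcript length and to depth) in every library. GFAP, which had no usable value in U87MG-LMO2 replicate 3, reached at most 0.26 FPKM in the others. The remaining gene, SLC1A3, averaged 8.90 FPKM in U87MG-control and 6.15 FPKM in U87MG-LMO2. Of 5 neuronal and 5 oligodendroglial markers, 3 and 4 were under 1 FPKM or had no line. Neuronal SNAP25 averaged 14.0 FPKM and oligodendroglial MOG 3.43 FPKM in U87MG-control. The mesenchymal markers VIM and CD44 averaged 5166 and 467.8 FPKM in U87MG-control. Endothelial and epithelial marker lists summed to at most 1.38 and 0.79 FPKM. Of 6 haematopoietic markers, 5 were under 1 FPKM, and CD68, which many cell types also express, made up nearly all of the list's 212.7 to 283.9 FPKM in U87MG-control and 157.8 to 283.2 FPKM in U87MG-LMO2.

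The 250 bases before the start sites of HGF, MET and PDGFRB are shown because HGF and PDGFRB had the largest differences between the groups and MET is the receptor of HGF. The sequences are RefSeq's, in build GRCh38.p14, read 5′ to 3′ on the gene's strand, with any E-box in capitals. Windows were searched on both strands for the E-box CANNTG and for the GATA forms AGATAA with its relative TGATAA as well as AGATAG with its relative TGATAG, which are bound by the bHLH and GATA factors that LMO2 is known to bridge, and for TTCNNNGAA, the STAT motif, since the study is about STAT3.
HGF (chr7:81770048-81770297, minus strand): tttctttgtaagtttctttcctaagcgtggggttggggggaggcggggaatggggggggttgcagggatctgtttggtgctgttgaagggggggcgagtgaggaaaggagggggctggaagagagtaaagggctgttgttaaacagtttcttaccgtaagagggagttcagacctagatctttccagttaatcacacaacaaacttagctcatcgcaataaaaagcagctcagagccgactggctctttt
MET (chr7:116671946-116672195, plus strand): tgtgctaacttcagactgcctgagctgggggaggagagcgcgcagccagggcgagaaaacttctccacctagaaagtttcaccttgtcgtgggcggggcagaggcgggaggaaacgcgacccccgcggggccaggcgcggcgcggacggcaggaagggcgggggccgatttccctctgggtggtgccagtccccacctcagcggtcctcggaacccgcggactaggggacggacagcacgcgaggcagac
PDGFRB (chr5:150155846-150156095, minus strand): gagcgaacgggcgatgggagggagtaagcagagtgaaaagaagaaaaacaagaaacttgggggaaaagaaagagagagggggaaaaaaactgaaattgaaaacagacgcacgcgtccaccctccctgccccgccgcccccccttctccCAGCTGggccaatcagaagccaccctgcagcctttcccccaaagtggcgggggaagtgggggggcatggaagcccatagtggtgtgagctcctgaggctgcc
The HGF and MET windows held none of these letters, and the PDGFRB window held 1 E-box, CAGCTG, which begins 102 bases before the start site. Of all 35116 windows in the table, 61.8% held an E-box, 22.3% a GATA motif and 6.57% the STAT motif. The HGF window had 50.0% GC and 6 CpG dinucleotides, whereas the MET window had 68.4% GC and 24. The PDGFRB window lay between them, with 58.4% GC and 9. Such matches describe the letters and do not show binding.

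In U87MG-control, FGFR1, EGFR and MET were the most abundant of the 10 genes per length. Mean FPKM was 119.6 ± 2.63 for FGFR1, 61.6 ± 4.03 for EGFR and 45.9 ± 2.76 for MET (SD, n = 3). HGF followed at 9.63 ± 1.93 FPKM. Then came IGF1R, the insulin-like growth factor receptor, at 3.54 ± 0.30 FPKM, PDGFRB at 3.41 ± 0.54 FPKM and ERBB2 at 1.56 ± 0.23 FPKM (SD, n = 3). PDGFRA was near the limit of detection, at 0.16 ± 0.16 FPKM, and NTRK2 was at or below 0.01 FPKM in every library. Of these neighbours only IGF1R and PDGFRB overlapped in range over the 3 U87MG-control libraries (3.24 to 3.84 and 3.05 to 4.03 FPKM). In U87MG-LMO2 the first 3 places were the same, PDGFRB held place 4 and HGF place 6, and HGF (2.01 to 2.68 FPKM) overlapped in range with ERBB2 (1.26 to 2.57 FPKM). The order in U87MG-control was the same in TPM. TPM was computed from FPKM by rescaling each library, which cannot change the order within a library, so this is not a separate check.

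**Figure D1:**
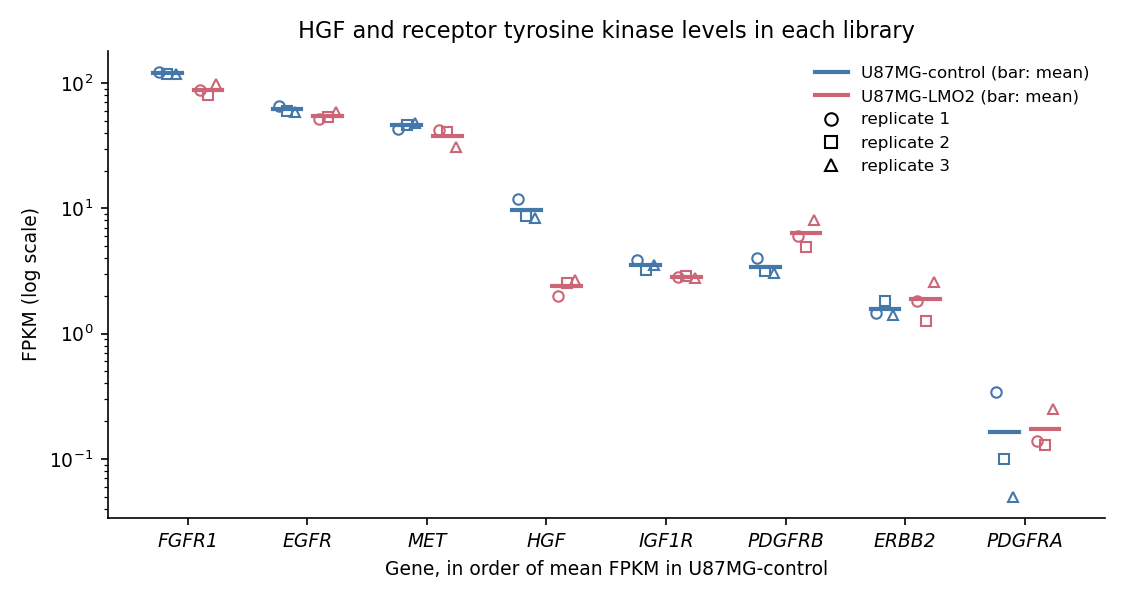
FPKM (log axis) of the 8 listed genes with a line in every library, in order of their mean in U87MG-control; points are libraries and bars are group means. FGFR1, EGFR and MET lie above 30 FPKM in all 6 libraries, HGF drops from 8.32 to 11.84 FPKM in U87MG-control to 2.01 to 2.68 FPKM in U87MG-LMO2, and PDGFRA stays below 1 FPKM.

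HGF had the largest difference of the tested members. It had 330, 257 and 244 counts in U87MG-control replicates 1, 2 and 3 and 75, 79 and 91 in those of U87MG-LMO2. All U87MG-LMO2 libraries lay below all U87MG-control libraries, although they were sequenced more deeply, and U87MG-control replicate 1 was the highest. Normalised, HGF had a mean of 22.0 ± 5.78 CPM in the control group and of 5.15 ± 0.50 CPM with LMO2 (SD, n = 3), a log2 fold change of -2.09 (SE 0.21), or 4.25-fold lower. It was among the genes called lower by edgeR at an adjusted p under 0.05, which were 2.75% of all tested genes. Without U87MG-control replicate 1 the log2 fold change was -1.85 and without U87MG-LMO2 replicate 3 it was -2.14. HGF transcripts have 40.8% GC, and after the GC correction the value was -1.88 (SE 0.20), and the gene stayed called. In bulk RNA, fewer cells that express a gene and less RNA per cell cannot be told apart.

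MET, which binds HGF, changed much less than its ligand. Its CPM was 285.8, 309.6 and 322.1 in U87MG-control replicates 1, 2 and 3 and 277.9, 272.8 and 223.7 in those of U87MG-LMO2. The groups did not overlap, but the nearest libraries, U87MG-LMO2 replicate 1 and U87MG-control replicate 1, lay close together. The log2 fold change was -0.24 (SE 0.11), and MET was not called. It was -0.15 without U87MG-LMO2 replicate 3, the lowest library, and -0.12 (SE 0.10) after the GC correction. Within a library, MET had 3.62, 5.33 and 5.80 times the FPKM of HGF in U87MG-control and 20.9, 16.0 and 11.5 times in U87MG-LMO2, so the receptor-to-ligand ratio of transcripts averaged 4.92 and 16.1.

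The PDGF receptors, which bind dimers of platelet-derived growth factors, were present at very unequal levels. PDGFRB had 267, 211 and 226 counts in U87MG-control replicates 1, 2 and 3 and 526, 413 and 756 in those of U87MG-LMO2. The groups did not overlap, and U87MG-LMO2 replicate 3 was the highest. Normalised counts averaged 18.6 ± 4.08 CPM in the control group and 35.3 ± 9.12 CPM with LMO2 (SD, n = 3), which is 1.91-fold higher (log2 fold change 0.93, SE 0.21). It was among the genes called higher, which were 4.72% of all tested genes. The call was lost in 7 of 14 alternatives: without any 1 of the 3 U87MG-control libraries (0.82 to 1.12), without U87MG-LMO2 replicate 1 (1.00), with limma on either FPKM scale (0.72 and 0.85) and after the GC correction (0.79, SE 0.19). Without U87MG-LMO2 replicate 3 the value was 0.71 and PDGFRB stayed called. PDGFRA had 14, 4.09 and 2.01 expected counts in U87MG-control and 10, 9 and 19 in U87MG-LMO2. These overlap only through U87MG-control replicate 1, the control library least like the others. With at most 19 counts PDGFRA did not pass the filter on low counts, so no fold is given.

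**Figure D2:**
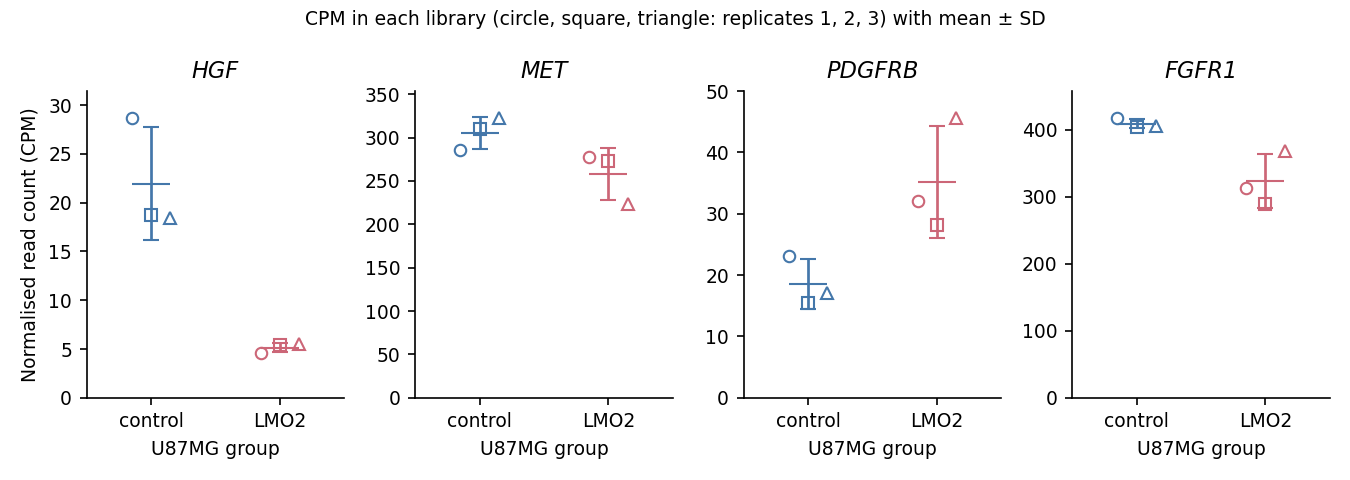
Normalised read counts (CPM, linear axes from 0) of HGF, MET, PDGFRB and FGFR1 in each library, with the mean and SD of the 3 libraries of each group. HGF lies at 18.5 CPM or more in U87MG-control and at 5.48 CPM or less in U87MG-LMO2, PDGFRB is higher in U87MG-LMO2, and MET and FGFR1 differ by a smaller fold than HGF.

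FGFR1, the fibroblast growth factor receptor, was the most abundant member and also the most even in U87MG-control. It was at 417.0, 404.4 and 406.4 CPM in U87MG-control replicates 1, 2 and 3 and at 312.6, 289.7 and 367.8 CPM in those of U87MG-LMO2. The groups did not overlap, and the U87MG-LMO2 libraries varied more, with a coefficient of variation of 12.4% against 1.65%. The log2 fold change was -0.34 (SE 0.11), and FGFR1 was not called. It was called in 4 of 14 alternatives: without U87MG-LMO2 replicate 3 (-0.44, SE 0.08), after the GC correction (-0.45, SE 0.09) and with limma on either FPKM scale (both -0.44). Its transcripts have 56.1% GC, and the median log2 fold change of all tested genes with 55 to 60% GC was 0.13.

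EGFR, the epidermal growth factor receptor, was at 372.3, 337.3 and 328.3 CPM in U87MG-control replicates 1, 2 and 3 and at 286.9, 304.2 and 337.1 CPM in those of U87MG-LMO2. The groups overlapped, and the log2 fold change of -0.16 (SE 0.10), or -0.23 (SE 0.10) after the GC correction, was not called in any of the 14 alternatives. ERBB2, a ligandless partner of other ERBB receptors, had 5.64, 7.23 and 5.60 CPM in the control libraries and 7.75, 5.59 and 11.6 CPM with LMO2. These groups overlapped too, and the log2 fold change of 0.44 (SE 0.27) shrank to 0.12 without U87MG-LMO2 replicate 3, its highest library, and to 0.25 (SE 0.22) after the GC correction. IGF1R was at 43.8, 38.3 and 41.2 CPM in the control libraries and at 34.4, 34.6 and 36.5 CPM in U87MG-LMO2. The groups did not overlap, but the log2 fold change was only -0.23 (SE 0.10), or -0.26 (SE 0.10) after the GC correction, and it was not called in any of the 14 alternatives.

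NTRK2, the receptor of brain-derived neurotrophic factor, had 1, 1 and 0 counts in U87MG-control and 0 in every U87MG-LMO2 library. A count of 0 allows up to 3 counts, for counting error only, so all 6 libraries were at or under that limit and no fold is given.

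Of the 7 tested members, edgeR thus called 1 lower and 1 higher. The groups did not overlap for 5 of the 7 (HGF, MET, PDGFRB, FGFR1 and IGF1R), and for 34.1% of all tested genes. The median log2 fold change of the 7 was -0.23, beside -0.01 for all tested genes. Since the genes were selected with these results known, nothing is read from these shares.

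**Figure D3:**
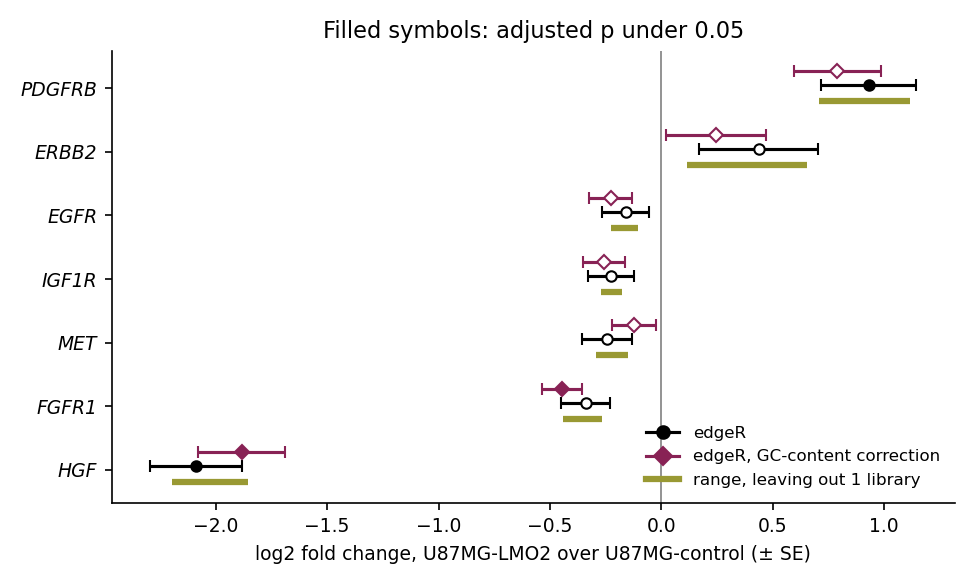
Log2 fold changes of the 7 tested members from edgeR (circles) and from edgeR after the GC correction (diamonds), with SE, and the range over the 6 fits that each left out 1 library (thick bars). Filled symbols were called: HGF in both fits, PDGFRB in the first (0.93) and FGFR1 in the second (-0.45), and each gene stays on 1 side of 0.

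**Figure D4:**
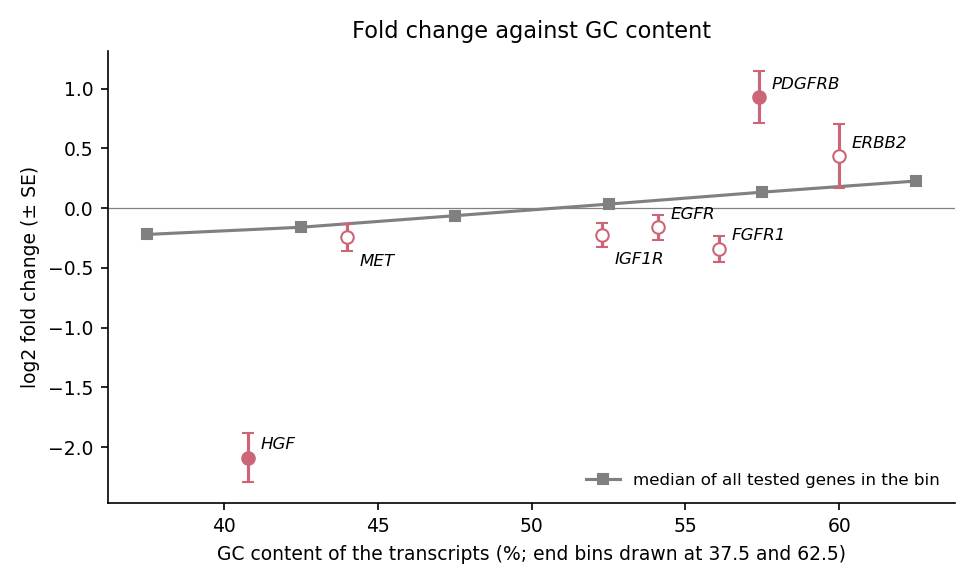
Log2 fold change (± SE) of the 7 tested members against the GC content of their transcripts, with the median of all tested genes per GC bin as squares. The medians climb from -0.22 to 0.23, HGF (40.8% GC) lies far below them, PDGFRB (57.4% GC) lies above them and FGFR1 lies below the median of its bin.

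The deposited tables also give a length for each gene that differs between libraries. It was read as the mean length of the gene's transcripts weighted by abundance, a reading that the layout of the tables allows but that no source used here states. For HGF it was 2429, 2172 and 2233 bases in U87MG-control and 2304, 2117 and 1893 bases in U87MG-LMO2, and the groups overlapped. MET varied least, from 6634 to 6646 bases over all 6 libraries. The groups did not overlap for FGFR1, with 3402, 3447 and 3429 bases in U87MG-control and 3594, 3584 and 3463 bases in U87MG-LMO2. ERBB2 was longer in U87MG-LMO2 as well, with a mean of 4282 ± 129.3 bases against 3944 ± 41.3 (SD, n = 3), as was IGF1R, at 11964 ± 82.7 bases against 11561 ± 215.9. Of 11055 tested genes whose length varied by more than 1 base, 16.7% had groups that did not overlap. The length comes from the same libraries as the choice of members, so no test was made. PDGFRA lengths rest on at most 19 counts.

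The listed receptors were then placed among 58 receptor tyrosine kinase genes. Of these, 51 had a line and 23 were above 1 FPKM in every U87MG-control library. FGFR1, EGFR and MET held places 2, 3 and 5 of the family by mean FPKM in U87MG-control, with AXL, named after its value was seen, at place 1 (155.6 ± 31.1 FPKM) and EPHA1 at place 4 (47.4 ± 4.14 FPKM; SD, n = 3). Together these 3 held 42.2%, 36.8% and 36.5% of the family's summed FPKM in U87MG-control replicates 1, 2 and 3 and 27.7%, 27.2% and 29.6% in those of U87MG-LMO2. These shares did not overlap. They were not corrected for GC content, and how often such shares separate was not tested. AXL, the most abundant of the other receptors, averaged 206.1 ± 22.0 FPKM in U87MG-LMO2 and was not called. Its log2 fold change was 0.44 (edgeR adjusted p 0.106), or 0.29 after the GC correction (edgeR adjusted p 0.267). The sum over the family was 548.9 to 617.0 FPKM in U87MG-control and 632.2 to 653.6 FPKM in U87MG-LMO2, so the shares moved with both the listed and the other receptors.

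Among the other receptor genes, 25 were tested, and edgeR called 3 higher and 1 lower, beside 4.72% and 2.75% of all tested genes. The median log2 fold change of these 25 was 0.10, beside -0.01 for all tested genes, both without the GC correction. EPHB2, an ephrin receptor of cell-cell contacts, rose from 98.9 ± 25.0 to 197.0 ± 49.8 CPM (log2 fold change 0.99, edgeR adjusted p 0.0364; SD, n = 3). EPHA1, another ephrin receptor, rose from 157.3 ± 13.6 to 225.7 ± 32.1 CPM (0.52, edgeR adjusted p 0.0451). CSF1R, the receptor of colony-stimulating factor 1, rose from 7.01 ± 0.70 to 12.3 ± 2.09 CPM (0.81, edgeR adjusted p 0.0325). ROS1, a receptor kinase known from cancer fusions, fell from 25.0 ± 1.68 to 10.1 ± 3.18 CPM (-1.31, edgeR adjusted p 0.0143). After the GC correction, only ROS1 of these 4 stayed called (-1.13, edgeR adjusted p 0.0348). EPHB2, EPHA1 and CSF1R were then at 0.87, 0.44 and 0.68, with edgeR adjusted p values from 0.0525 to 0.0697. No call of these 4 genes held when any 1 of the U87MG-control libraries was left out, nor did those of EPHB2 and EPHA1 without U87MG-LMO2 replicate 1 or 2 or that of CSF1R without U87MG-LMO2 replicate 2. With limma on either FPKM scale, the calls of EPHB2, EPHA1 and CSF1R were lost. With the replicate number as a block, those of EPHA1 and CSF1R were lost. Over all 14 alternatives the log2 fold change ran from 0.78 to 1.14 for EPHB2, from 0.43 to 0.64 for EPHA1, from 0.53 to 0.95 for CSF1R and from -1.54 to -0.95 for ROS1.

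Of the ligands other than HGF, 18 were tested and edgeR called 2 higher and 1 lower, beside 4.72% and 2.75% of all tested genes. The median log2 fold change of the 18 was 0.02. NRG1, a ligand of ERBB3 and ERBB4, rose from 29.2 ± 3.27 to 59.4 ± 17.7 CPM (log2 fold change 1.02, edgeR adjusted p 0.0280; SD, n = 3). KITLG, the stem cell factor that binds KIT, fell from 23.7 ± 1.61 to 15.7 ± 1.92 CPM (-0.60, edgeR adjusted p 0.0358), and lost its call after the GC correction (-0.37, edgeR adjusted p 0.0895). NRG1 kept its call after that correction (1.09, edgeR adjusted p 0.0178). Neither call held when any 1 of the U87MG-control libraries or U87MG-LMO2 replicate 1 was left out, or with limma on either FPKM scale. That of KITLG did not hold without U87MG-LMO2 replicate 2 or with the replicate number as a block either. Over all 14 alternatives the log2 fold change ran from 0.78 to 1.24 for NRG1 and from -0.66 to -0.37 for KITLG. Several ligands had transcripts where the listed receptor had few or none, and the following were picked after their values were seen. BDNF, which binds NTRK2, was at 16.8 ± 2.16 FPKM in U87MG-control and 16.9 ± 4.78 FPKM in U87MG-LMO2 (SD, n = 3). PDGFC, a ligand of PDGFRA, was at 13.2 ± 0.99 and 12.3 ± 1.72 FPKM. Of the same ligand list, NTF4 varied widely, at 9.32 ± 7.02 and 25.3 ± 13.7 FPKM. PDGFA was at 3.93 ± 0.34 and 4.60 ± 0.38 FPKM, and neither NTF4 nor PDGFA was called.

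Genes that activate HGF, inhibit its activation or hold it at the cell surface were compared next. Of 12 listed, 7 were tested, and edgeR called 0 of them, beside 4.72% of all tested genes called higher and 2.75% lower. Of the 7, 0 had an unadjusted edgeR p under 0.05, beside 4143 of all 16092 tested genes. DESeq2 and limma on log2(FPKM + 1) also called 0. Without U87MG-LMO2 replicate 3, edgeR called 4 of these genes and 2409 genes in all. The most abundant was CD44, a co-receptor of MET, at 467.8 ± 24.4 FPKM in U87MG-control and 548.7 ± 53.8 FPKM in U87MG-LMO2 (SD, n = 3). Its edgeR adjusted p was 0.292.

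Of 36 genes of adaptors and of the RAS-MAPK and PI3K-AKT cascades, all were tested. Here edgeR called 1 higher and 2 lower, beside 4.72% and 2.75% of all tested genes, and the median log2 fold change of the 36 was -0.04. PIK3CA, the catalytic subunit p110 alpha, fell from 32.6 ± 2.54 to 20.6 ± 2.0 CPM (log2 fold change -0.66, edgeR adjusted p 0.0208; SD, n = 3). PIK3R2, a regulatory subunit, rose from 131.8 ± 0.92 to 178.7 ± 13.4 CPM (0.44, edgeR adjusted p 0.0319). The GC contents of PIK3CA and PIK3R2 were 39.0% and 64.5%, and each difference had the direction of the median of its GC bin. After the GC correction PIK3R2 was at 0.19 (edgeR adjusted p 0.218), while PIK3CA stayed called (-0.44, edgeR adjusted p 0.0465). Both calls were lost when any 1 of the U87MG-control libraries or U87MG-LMO2 replicate 1 was left out, and that of PIK3R2 also with the replicate number as a block. The log2 fold change over the 14 alternatives ran from -0.76 to -0.44 for PIK3CA and from 0.19 to 0.48 for PIK3R2. PIK3CA has a pseudogene copy that can share reads, so its values are uncertain.

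Of 22 tested genes that restrain receptor signalling, edgeR called 1 lower and none higher, beside 2.75% and 4.72% of all tested genes. The median log2 fold change of the 22 was -0.20. DUSP5, a nuclear phosphatase of ERK, had 49.1, 49.2 and 45.2 CPM in U87MG-control replicates 1, 2 and 3 and 20.3, 17.7 and 34.2 CPM in those of U87MG-LMO2. It fell by 0.99 on the log2 scale (SE 0.22, edgeR adjusted p 0.0361) and stayed called after the GC correction (-1.08, edgeR adjusted p 0.0210). The call was lost in 5 of 14 alternatives, each of which left out a library other than U87MG-LMO2 replicate 3, and the log2 fold change over all 14 ran from -1.33 to -0.81. Of 9 tested genes that report MAPK output, 2 were above 0 and 7 below, with a median of -0.34. Of these 9, 4 (SPRY2, SPRY4, DUSP4 and DUSP6) are also in the list of genes that restrain signalling. EPHA2, which had the highest log2 fold change of the 9 (0.53), is also counted among the other receptor genes. edgeR called 0, with 5 at an unadjusted p under 0.05, as had 4143 of all 16092 tested genes, DESeq2 called 1 and limma on log2(FPKM + 1) called 0. Without U87MG-LMO2 replicate 3, edgeR called 3 of these genes and 2409 genes in all. The most abundant were CCND1, which encodes cyclin D1, at 162.1 ± 5.31 and 143.2 ± 11.5 FPKM, and PHLDA1 at 70.6 ± 7.48 and 48.3 ± 13.6 FPKM in U87MG-control and U87MG-LMO2 (SD, n = 3), with edgeR adjusted p values of 0.382 and 0.183, or 0.0902 and 0.484 after the GC correction.

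**Figure D5:**
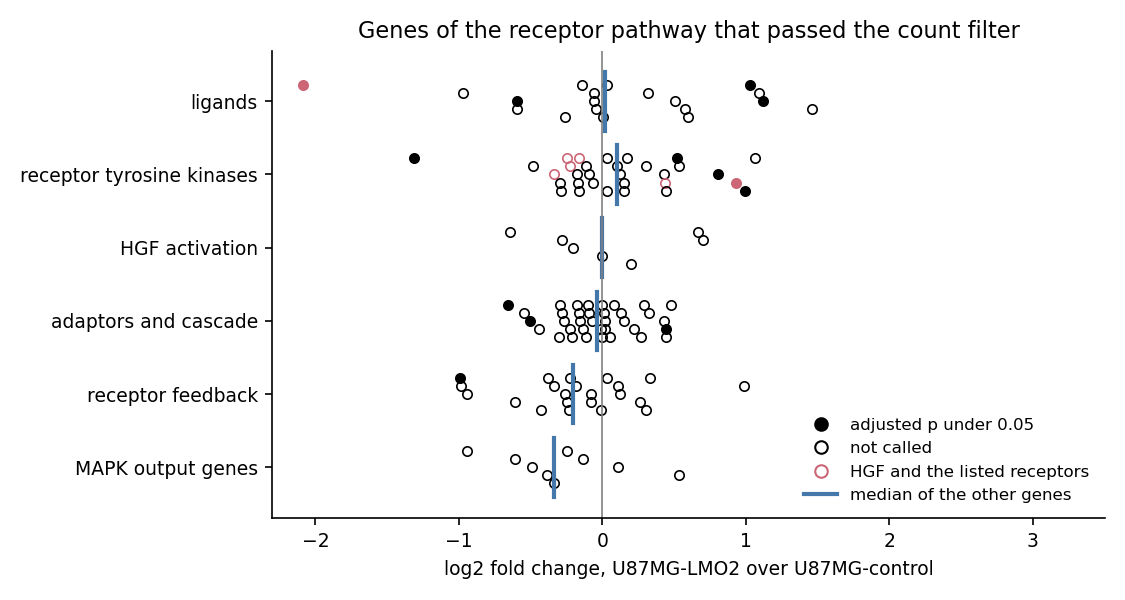
Log2 fold changes of the tested genes of each pathway list, filled where edgeR's adjusted p was under 0.05; vertical bars mark the median of each list without HGF and the listed receptors. HGF lies at the far left (-2.09), the called ligands and receptors lie on both sides of 0, and the medians run from -0.34 for MAPK output genes to 0.10 for the other receptors. These values are not corrected for GC content, along which the median of all tested genes ran from -0.22 to 0.23.

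The genes whose log2 CPM moved most like that of HGF over the 6 libraries, of 15225 genes with a mean of at least 1 CPM, were ZFHX4 (Pearson r = 0.998), CDK8 (0.998) and PARD3 (0.997). ZFHX4 averaged 105.1 CPM in the control group and 71.1 CPM with LMO2, CDK8 at 26.1 and 19.9 CPM, and PARD3 at 95.1 and 61.6 CPM. Their log2 fold changes, from -0.39 to -0.62, were smaller than that of HGF, and edgeR called ZFHX4 and PARD3 but not CDK8. For MET the closest were NUP42 (0.995), HCFC2 (0.995) and RPA1 (0.992), which were not called, with log2 fold changes from -0.13 to -0.39. The 6 libraries fall into 2 groups and share depth and base composition within them, so any gene that differs between the groups correlates with HGF, and these values are a description.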

How the data were processed

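Total RNA of U87MG-control and U87MG-LMO2 (3 libraries each) was sequenced. The submitters' processing notes name GRCh38.p12, Bowtie2 and BWA; the counting program is not given in the sources used here. The authors deposited, per library, expected counts (estimated reads per gene, not normalized) and FPKM (the same reads scaled to length and depth). Per the file headers, a comparison table holds group means, a log2 ratio and a probability; the last 2 were not used. Genes without a line were taken as 0 counts.

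The table of U87MG-LMO2 replicate 3 had 3 damaged lines, and 134 genes whose U87MG-LMO2 means did not match the authors' within 0.001 FPKM were left out; no member was among them. Expected counts were rounded and tested with edgeR 4.0.16 in R 4.3.3 (filterByExpr, TMM, glmQLFit and glmQLFTest, 2-sided, adjusted by Benjamini-Hochberg over 16092 genes, called under 0.05), which was tested on simulated data. Alternatives were DESeq2 1.42.0, limma 3.58.1 on log2(FPKM + 1) and log2(FPKM + 0.1), upper-quartile scaling, 2 other filters, a replicate block and leaving out each library. The GC correction, chosen after seeing the data, used each library's lowess trend (span 0.3) on GENCODE v29 transcripts as an offset; 89.8% of tested genes had a GC value. Depth was 11428432 to 17892955 counts; limits cover counting error only.

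Members and gene lists were chosen with earlier results of these data known. Named genes were the members, LMO2, every called gene of a list (the 4 highest and 4 lowest where more than 8; the 2 most abundant where none) and the 3 genes most correlated with HGF and with MET; a few genes that this rule names are not reported here, although the counts include them. Gene names came from RefSeq (GRCh38.p14). Same-numbered libraries' deviations correlated at -0.12, -0.00 and -0.04, so the numbers did not pair them.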

Additional observations from a re-analysis of the deposited data

How the results depend on the processing

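The 7 tested members kept the sign of their fold change in the 14 alternatives. With edgeR, 1203 genes were called, 576 with the replicate number as a block, and 144 to 2409 when 1 library was left out; the highest came without U87MG-LMO2 replicate 3. The members called higher (1 with all libraries) were 0 with limma on either FPKM scale and after the GC correction and 0 to 1 when a library was left out. Those called lower (1) were 2, 2 and 2 in the same fits, FGFR1 being the added gene, and 1 to 2 when a library was left out. Called genes of the other receptors (4) were 1 with limma on either scale, 2 with the block, 2 after the GC correction and 0 to 5 when a library was left out. Called ligands other than HGF (3) were 6 with DESeq2, 7 with no filter, 5 after the GC correction and 0 to 8. Called genes of adaptors and cascades (3) were 5 with DESeq2, 1 with the block, 1 after the GC correction and 0 to 4. Called feedback genes (1) were 3 with DESeq2, 2 with no filter, 2 with at least 10 counts in every library and 0 to 5. Called MAPK output genes (0) were 1 with DESeq2 and 0 to 3, and called HGF activation genes (0) were 0 to 4. For these shifts the cause was not tested. The block changed no member's call. LMO2, with few control counts, did not pass the minimum of 10 counts per library. The depth limits PDGFRA and NTRK2, which did not pass the filter of the main test. The fit with no filter took them in, but its result for them is not reported here.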

Other observations

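After the GC correction, which was chosen after seeing the data, edgeR called 4 genes of the receptor and ligand lists, besides FGFR1, that the uncorrected test had not called, and these were picked by that result. EREG, a ligand of EGFR, had a corrected log2 fold change of 1.32 (SE 0.29, edgeR adjusted p 0.0372). FGF2, a ligand of FGFR1, had 0.80 (SE 0.12, edgeR adjusted p 0.0106). NRG2, a ligand of ERBB3 and ERBB4, had -0.84 (SE 0.12, edgeR adjusted p 0.0106), opposite in sign to NRG1. EPHB4, an ephrin receptor, had -0.50 (SE 0.10, edgeR adjusted p 0.0320). Without the correction their edgeR adjusted p values were 0.102 for EREG, 0.0524 for FGF2, 0.0516 for NRG2 and 0.184 for EPHB4. The groups of EREG overlapped in CPM. It was at 37.7, 22.3 and 20.7 CPM in U87MG-control replicates 1, 2 and 3 and at 46.1, 91.4 and 34.3 CPM in those of U87MG-LMO2.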
